A study of Mus musculus with 5 samples.

Results

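CM3-high spots are the spots of the neonatal mouse heart with the largest score for CM3, 1 of 5 cardiomyocyte states (CM1 to CM5) that the study scored in every spot. In each of 5 Visium sections, spots under 1000 UMIs were dropped, and members were chosen by the CM3 score alone, as the 5% of spots with the largest value above 0, rounding up. This gave 170 CM3-high spots of 3342. There were 28 in sham day 3, 48 in sham day 7, 19 in MI day 3, 35 in MI day 7 replicate 1 and 40 in MI day 7 replicate 2. They were set against the 1524 CM1-dominant spots (CM1 the highest of 11 cell type scores) that were not CM3-high, with 182 to 453 such spots in a section.

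The hearts came from wild-type C57BL/6 mice operated on at postnatal day 1 and collected 3 or 7 days later. MI hearts had the left anterior descending artery tied off, which infarcts the tissue it feeds. Sham hearts had the surgery without the infarct. Each section was 10 µm thick and was taken 200 µm under the suture, with sham hearts cut at the corresponding level. There was 1 section each for sham day 3, sham day 7 and MI day 3, and 2 sections of separate hearts for MI day 7, so 3 of the 4 groups have no replicate error. The section is the replicate in every test. The labels name no further allele in any group. Read from Xist and Ddx3y, sham day 3 and MI day 7 replicate 1 were female and the other sections male. The MI day 7 replicates thus differ in sex, as do the sham sections, and differences within each pair cannot be told apart from sex.

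In the first week after birth, cardiomyocytes leave the cell cycle, swap fetal for adult contractile proteins, and move from glycolysis towards fatty acid oxidation. The left and right ventricular walls, the septum and the inner trabecular layer also keep distinct expression programmes. Single-nucleus RNA-seq sorts these cells into states, and the study transferred its earlier nuclear labels onto the spots. A Visium spot captures polyadenylated RNA from a small disc of tissue and usually holds several cells, so a score describes the mixture and is not a count of cells. Fewer cells of a type and less RNA per cell cannot be told apart in such a mixture. The study lists no marker genes for CM3. In a separate set of nuclei it merged CM3 with CM1, because the pair did not separate.

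Depth was similar in both spot sets except in one section. The median raw UMI count of CM3-high spots was 21944 in sham day 3, 21768 in sham day 7, 52703 in MI day 7 replicate 1 and 20558 in MI day 7 replicate 2, against 21725, 23288, 54447 and 21179 in the CM1-dominant spots. In MI day 3 it was 24452 against 35349. Mitochondrial transcripts made up 26.2% of the values of CM3-high spots in MI day 7 replicate 1 and 15.5% to 16.5% in the others. The part that these differences play in the results was not tested, beyond the values given beside them.

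The CM3 score was low in most tissue, and its top 5% was a different range in each section. It was above 0 in 80.7% of spots of sham day 3, 75.5% of sham day 7, 38.9% of MI day 3, 70.2% of MI day 7 replicate 1 and 66.7% of replicate 2. The largest score was 44.7%, 85.8%, 45.8%, 35.1% and 57.4% in the same order. The last spot inside the set and the first one outside it stood at 22.6% and 22.5% in sham day 3, 32.3% and 32.1% in sham day 7, 13.6% and 13.5% in MI day 3, 9.93% and 9.90% in MI day 7 replicate 1, and 28.0% and 27.0% in replicate 2. The set is therefore the upper end of a continuous range, with no gap at its border. A spot in MI day 7 replicate 1 could enter it with a score that left it far outside the set of sham day 7.

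Averaged over all spots of a section, the CM3 score was 6.83% in sham day 3, 7.62% in sham day 7, 1.99% in MI day 3, 2.54% in MI day 7 replicate 1 and 6.79% in replicate 2. Both sham sections were above the 3 MI sections, with a difference of -3.45 percentage points, MI minus sham, given as a description since this score chose the members. MI day 7 replicate 2 lay within 0.1 points of sham day 3, and the 2 MI day 7 hearts differed from each other more than replicate 2 did from either sham.

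CM3 was seldom the leading score even where it was highest. CM1 led in 126 of the 170 CM3-high spots (74.1%) and CM3 in 35, and the other 9 were led by FB (3), EndoEC (2), CM2, CM4, EC or macrophage. The CM3-led members numbered 24 of 48 in sham day 7, 7 of 40 in MI day 7 replicate 2 (17.5%), 2 of 28 in sham day 3 (7.14%), 2 of 35 in MI day 7 replicate 1 (5.71%) and 0 of 19 in MI day 3. Outside the set, CM3 led in 3 more spots, all in sham day 7. For most members the accurate name is thus a CM1-led spot with an admixture of CM3, and "CM3 spot" fits only the 35. In the 5 sections in the order above, members held on average 28.4%, 42.4%, 22.2%, 16.7% and 36.5% CM3 and 58.9%, 37.0%, 62.9%, 52.9% and 48.2% CM1. These values chose the members and are a description.

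Members were muscle. The 10 cardiomyocyte markers (among them Myl2, Myl3, Myh6, Actc1 and Tnnt2) were all detected and summed to between 54275 and 62169 CPM (deposited values scaled to one fixed total per spot, UMIs in sham day 3 and corrected counts in the other sections) in the CM3-high spots of a section, against 50439 to 61064 CPM in the CM1-dominant spots. Macrophage markers summed to 96.3 to 313 CPM in members and to at most 409 CPM in CM1-dominant spots, and none of the 10 was at 0 in every section. Of 7 epicardial markers 3 were in the shared gene set, and these summed to at most 16.7 CPM in members and 26.2 CPM in CM1-dominant spots. Of the 9 atrial genes 6 were in it. Myl7, the atrial light chain, was at 21.2 CPM in sham day 3, 12.4 CPM in MI day 3 and at most 0.877 CPM at day 7.

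**Figure D1:**
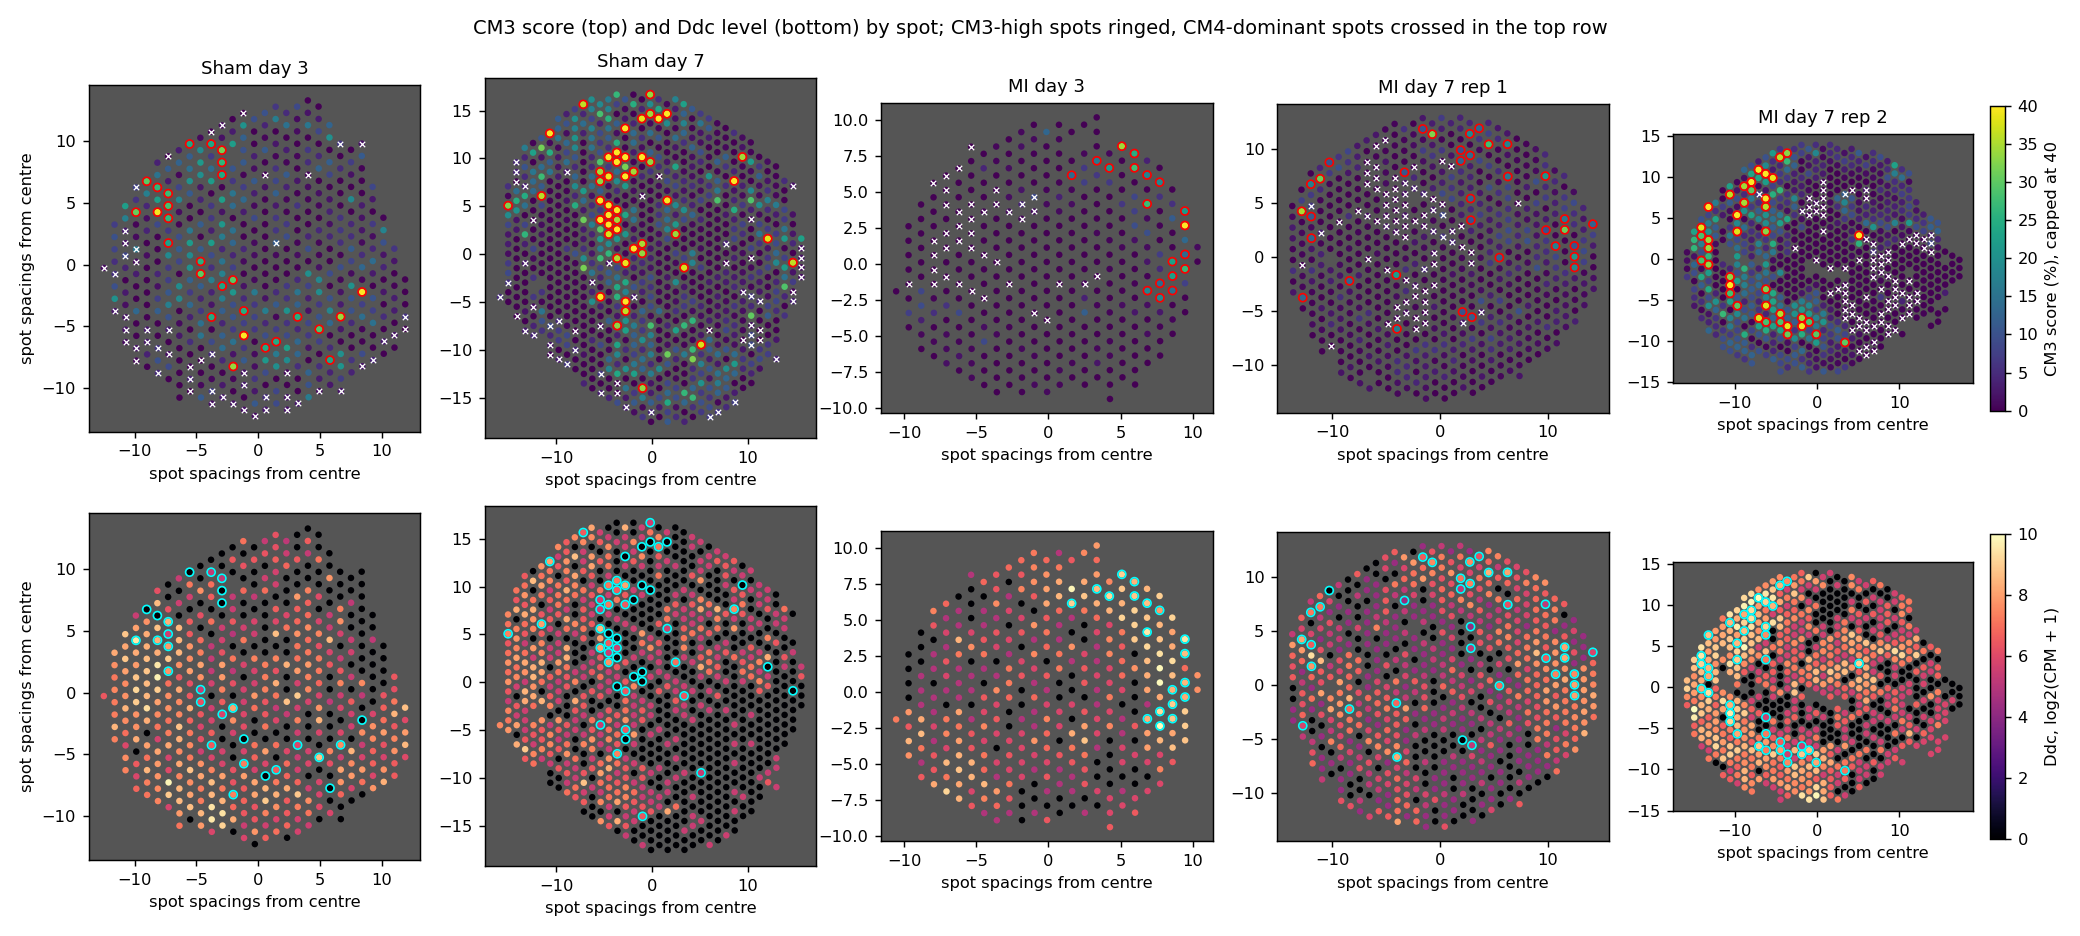
Spots of the 5 sections drawn by position, with both axes in spot spacings from the section centre. Colour gives the CM3 score in percent in the top row (capped at 40) and the Ddc level as log2(CPM + 1) in the bottom row; rings mark CM3-high spots and crosses in the top row CM4-dominant spots. Members clump within each section, and their centre lies 136 degrees from that of the crosses in MI day 3, 73.6 degrees in MI day 7 replicate 1 and 171 degrees in replicate 2.

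CM3-high spots lay next to one another rather than evenly over the tissue. Of the spots adjacent to a member, 14.8% were members in sham day 3, 22.9% in sham day 7, 35.3% in MI day 3, 10.9% in MI day 7 replicate 1 and 17.0% in replicate 2, although members were only just over 5% of the spots. In MI day 3, 17 of 19 members touched another member, and in sham day 3 it was 16 of 28. Moran's I of the CM3 score, where 0 means no spatial order and 1 full clustering, was 0.28, 0.28, 0.34, 0.16 and 0.42 in the 5 sections. The replicate MI day 7 hearts marked both ends of that range.

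The side of the section on which members lay was read from their centre, a measure chosen after the maps were seen. The centre of the members was 1.07 root-mean-square radii from the section centre in MI day 3, 0.67 in MI day 7 replicate 2, 0.46 in sham day 7, 0.45 in MI day 7 replicate 1 and 0.31 in sham day 3. For CM1-dominant spots it was 0.05 to 0.21. The difference had the same sign in 5 of 5 sections (mean 0.43, SD 0.26; exact sign-flip permutation test over 5 sections, two-sided, p = 0.0625, the smallest that 5 sections allow). A centre over few spots strays farther than one over many, so set size alone acts in that direction. The members' spread around their centre was 0.60 to 1.02 radii against 0.98 to 1.08, a value that follows from the offset where distances from the section centre are alike, and so is given with no test.

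CM4 is the cardiomyocyte state that the study links to regeneration. Seen from the section centre, the members and the CM4-dominant spots lay 171 degrees apart in MI day 7 replicate 2, 157 degrees in sham day 7 and 136 degrees in MI day 3. In MI day 7 replicate 1 and sham day 3 the angle was 73.6 and 72.8 degrees. The nearest CM4-dominant spot was on average 5.94 spacings from a member and 3.86 from a CM1-dominant spot in MI day 3, and 5.59 against 4.58 in MI day 7 replicate 2. In MI day 7 replicate 1 the members were the closer set, at 3.15 against 3.65 spacings. Over the 5 sections the difference was 0.66 spacings (SD 0.96, higher in 4 of 5; exact sign-flip permutation test, p = 0.25), which did not exceed the spread between sections.

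No preference for the edge or the centre of the tissue exceeded the spread between sections. Edge spots, with fewer than 6 neighbours, made up 7.14%, 8.33%, 31.6%, 14.3% and 7.50% of members and 14.5%, 12.5%, 24.3%, 22.5% and 20.1% of CM1-dominant spots. MI day 3 alone had more edge spots among its members, where 6 of the 19 were edge spots. The mean difference was -5.02 percentage points (SD 7.50; exact sign-flip permutation test, p = 0.1875). Relative distance from the section centre differed by -0.02 on average (SD 0.15; exact sign-flip permutation test, p = 0.875). Members were nearer the centre than CM1-dominant spots in both sham sections (0.93 against 0.99 and 0.84 against 1.08 of the mean distance) and farther in all 3 MI sections (1.29 against 1.13, 1.14 against 1.13 and 1.08 against 1.01). This MI minus sham difference was 0.23 with an exact permutation p of 0.2, the smallest possible.

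The spots that touched a member without being one themselves were compared with the spots that touched a CM1-dominant spot. Their CM3 score was 9.41%, 8.18%, 2.89%, 2.52% and 11.1% around members and 7.00%, 7.43%, 1.09%, 2.29% and 6.503% around CM1-dominant spots. It was higher in 5 of 5 sections, by 1.96 percentage points (SD 1.71). As this is the score that chose the members and it is ordered in space, the value is a description. EndoEC, the score for the endocardium that lines the chambers, was 14.7% against 2.31% in MI day 3, 17.2% against 3.69% in MI day 7 replicate 1 and 6.22% against 3.62% in replicate 2. In the sham sections it was 3.28% against 6.14% at day 3 and 5.04% against 3.74% at day 7. In the MI hearts the members' nearest EndoEC-dominant spot was 1.87, 3.48 and 2.68 spacings away against 4.55, 4.33 and 4.62 for CM1-dominant spots. In sham hearts it was 2.79 against 2.67 at day 3 and 3.76 against 3.53 at day 7, and over the 5 sections the difference was -1.03 spacings (SD 1.28, lower in 3 of 5; exact sign-flip permutation test, p = 0.25). Over all 5 sections the EndoEC difference was 5.39 points (SD 7.21; exact sign-flip permutation test, p = 0.25).

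No other neighbour score kept one direction in all 5 sections. The CM4 score of adjacent spots was lower around members in 4 of 5 sections, at 0.47% against 5.49% in MI day 3, and higher in MI day 7 replicate 1, at 8.95% against 5.64%. The CM1 score of adjacent spots was lower around members in 4 of 5 sections, most in that heart, at 37.6% against 60.0%. In sham day 3 it was higher, at 44.9% against 39.3%. The FB score in MI day 7 replicate 1 was 11.6% against 4.77%. Leaving aside the CM3 score, none of the other 10 had an adjusted p under 0.75 by the exact sign-flip permutation test (Benjamini-Hochberg over 10 scores).

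**Figure D2:**
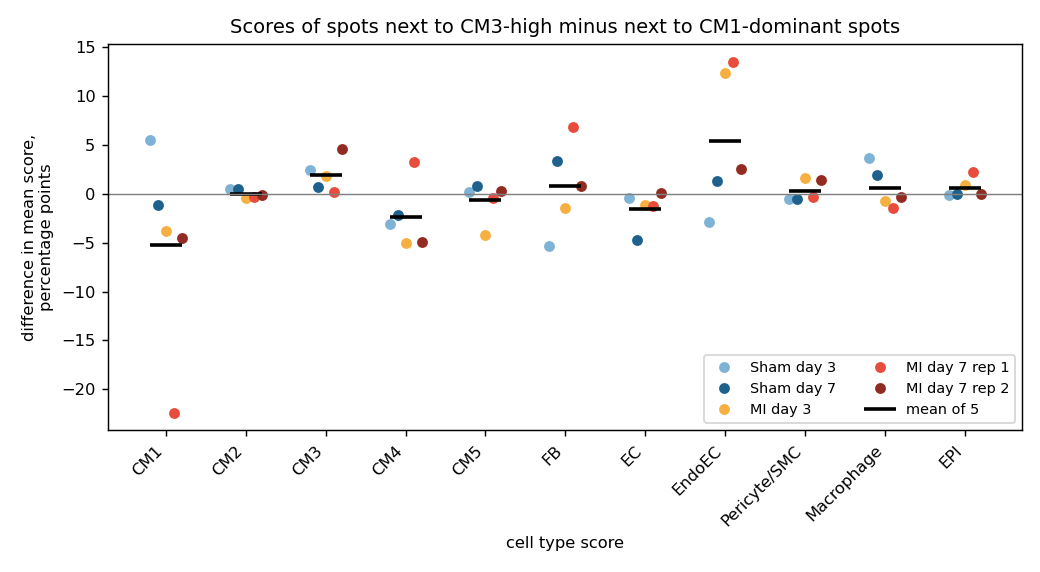
Mean score of the spots adjacent to CM3-high spots minus that of spots adjacent to CM1-dominant spots, in percentage points, for each of the 11 cell type scores. Points are sections and black bars their mean over 5; CM3 is above 0 in all 5 sections and EndoEC is highest in MI day 3 and MI day 7 replicate 1.

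In expression, members were close to CM1-dominant spots, and among genes of one sign in all 5 sections Ddc differed most. Because the score was computed from the expression of the same spots, these differences describe the score and carry no test. Among 2562 genes with a mean of at least 50 CPM in either set, 178 (6.95%) were higher in members in all 5 sections and 41 (1.6%) lower. The median difference of these genes was 0.03 on the log2(CPM + 1) scale and their SD 0.10. The balance of higher and lower depended on the scaling. It was 244 to 24 with median-of-ratios scaling and 110 to 97 once mitochondrial and haemoglobin genes were left out.

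Ddc led the list. It encodes aromatic L-amino acid decarboxylase, the enzyme that makes dopamine from L-DOPA and serotonin from 5-hydroxytryptophan. The gene (ENSMUSG00000020182.16, protein coding) lies on chromosome 11 from 11814101 to 11898144 in GRCm38, beside Grb10, and the neonatal mouse heart is known to transcribe it from the paternal copy. In CM3-high spots Ddc was at 129 CPM in sham day 3, 80.8 in sham day 7, 486 in MI day 3, 138 in MI day 7 replicate 1 and 375 in replicate 2. In CM1-dominant spots it was at 112, 54.3, 155, 72.7 and 166 CPM. The log2 difference was 0.20, 0.57, 1.64, 0.92 and 1.17, a mean of 0.90 (SD 0.55, n = 5 sections), equal to 1.87-fold. No other gene of this level that was higher in all 5 sections had a mean above 0.41.

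The Ddc difference varied widely between sections. In MI day 3 every member had Ddc transcripts, from 235 to 1101 CPM in a spot, and the median member spot ranked at 92.6% of all spots of the section. In sham day 3 the median rank was 42.0%, and 67.9% of members had a Ddc transcript against 73.2% of CM1-dominant spots. That section holds raw counts, where members had 79 Ddc UMIs in 642943, or 123 CPM pooled (exact Poisson 95% interval 97.3 to 153, counting error only), and CM1-dominant spots 534 in 4855327, or 110 CPM (100.9 to 120). These intervals overlap, and they leave out the spread between spots, which ran from 0 to 748 CPM among the members. With CM1-dominant spots matched on UMI count, sham day 3 changed sign, at 129 against 135 CPM, and MI day 3 narrowed to 486 against 276 CPM, while the other 3 sections kept the direction.

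Ddc was itself patterned over the tissue. Its Moran's I was 0.33, 0.32, 0.39, 0.34 and 0.37. In sham day 3 other spots had more Ddc than the members' 129 CPM, with 193 in macrophage-dominant, 184 in EndoEC-dominant and 164 in CM4-dominant spots. EndoEC-dominant spots had 60.1 CPM in sham day 7, 153 in MI day 3, 93.2 in MI day 7 replicate 1 and 199 in replicate 2, each below the members of their section. CM1-dominant spots that touched a member had 337 CPM in MI day 3, 98.6 in MI day 7 replicate 1 and 255 in replicate 2, against 116, 65.0 and 140 CPM in those that did not. In the sham sections the values were 114 against 111 and 61.7 against 51.9 CPM. Spots beside members thus had the higher Ddc level in each MI heart, and in sham day 3 both kinds were nearly equal. Across CM1-dominant and CM3-high spots together, Spearman's rho of Ddc with the CM3 score was 0.47 in MI day 3 (201 spots), 0.26 in MI day 7 replicate 1 (343), 0.38 in replicate 2 (493), 0.13 in sham day 7 (409) and 0.10 in sham day 3 (248). Over all spots it was 0.37, 0.22, 0.40, 0.04 and -0.06 in the same order, so its sign turned in sham day 3. Spots of 1 section share a library, and the score was made from their expression. Within the set, the 7 CM3-led members of MI day 7 replicate 2 had 635 CPM Ddc and its 33 CM1-led members 320 CPM. In sham day 7 the values were 93.4 and 74.5 CPM.

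Grb10, the imprinted growth-inhibitory adaptor next to Ddc, was at 387, 236, 489, 200 and 263 CPM in members and 382, 220, 434, 176 and 229 CPM in CM1-dominant spots. It was higher in 5 of 5 sections, but by 0.14 on the log2 scale (SD 0.08).

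**Figure D3:**
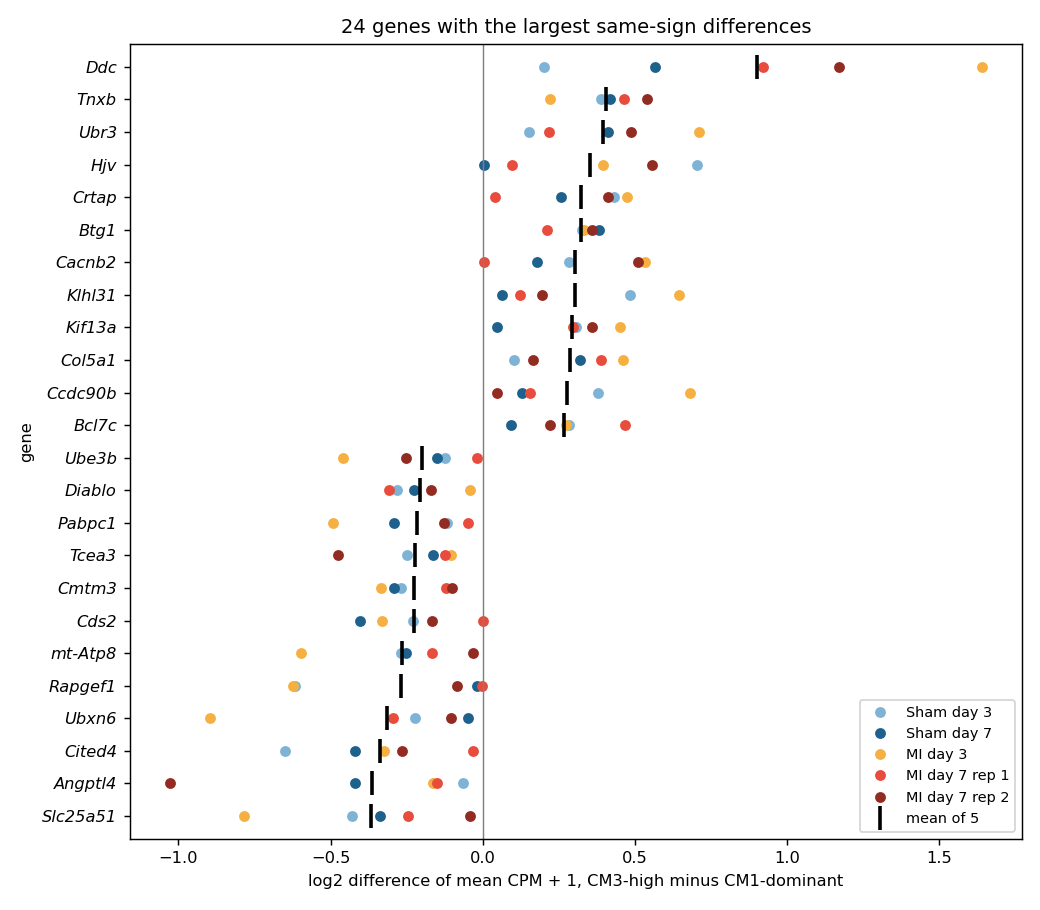
Log2 difference of mean CPM + 1, CM3-high minus CM1-dominant, for the 24 genes of at least 50 CPM with the largest differences of the same sign in all 5 sections (12 a direction). Points are sections and black bars their mean; Ddc reaches 1.64 in MI day 3, and the mean of each other gene shown lies between -0.37 and 0.41.

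The other genes of at least 50 CPM that were higher in members in every section differed by small amounts. Next came Tnxb, the extracellular matrix glycoprotein tenascin-X (0.41, SD 0.12), which was at 48.1, 57.6, 42.1, 62.6 and 79.3 CPM against 36.5, 42.8, 36.0, 45.2 and 54.3 CPM. Then came Ubr3, a ubiquitin ligase (0.40), Hjv, the BMP co-receptor hemojuvelin that is made in striated muscle (0.35), Crtap, which modifies collagen (0.32), and the antiproliferative gene Btg1 (0.32, SD 0.07). Btg1 was the most even of these, at 0.21 to 0.38 in the sections. Cacnb2, a subunit of the L-type calcium channel, Klhl31, a muscle Kelch protein, the kinesin Kif13a, the fibrillar collagen Col5a1, Ccdc90b and Bcl7c were higher by 0.27 to 0.30.

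Among genes of at least 50 CPM, those lower in members in every section were led by Slc25a51, the mitochondrial NAD carrier (-0.37, SD 0.27), Angptl4, an inhibitor of lipoprotein lipase (-0.36), and the transcriptional co-regulator Cited4 (-0.34). Ubxn6, Rapgef1, mt-Atp8, Cds2, Cmtm3, Tcea3, Pabpc1, Diablo and Ube3b were lower by 0.20 to 0.31. Angptl4 was lower mostly through MI day 7 replicate 2, at 8.37 against 18.1 CPM, and differed little in sham day 3, at 84.1 against 88.0 CPM. With the UMI-matched comparator, 60 of the 178 higher genes and 7 of the 41 lower genes kept one sign in all 5 sections.

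Nppa, the atrial natriuretic peptide that marks stressed and inner trabecular muscle, had a larger mean difference than Ddc but not in every section. Members had 224 CPM against 615 in sham day 3, 124 against 256 in sham day 7, 1097 against 3568 in MI day 3 and 189 against 433 in MI day 7 replicate 2. In MI day 7 replicate 1 they had 64.3 against 56.0 CPM. The mean was -1.04 (SD 0.73). Haemoglobin transcripts, a sign of retained blood, moved with the sections too. Hba-a1 was at 1311, 1550 and 1378 CPM in members of MI day 3 and MI day 7 replicates 1 and 2, against 3489, 2374 and 3398 CPM, and at 1190 against 1924 CPM in sham day 7. In sham day 3 it was higher in members, at 1782 against 1092 CPM. The part of retained blood in the other differences was not tested.

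**Figure D4:**
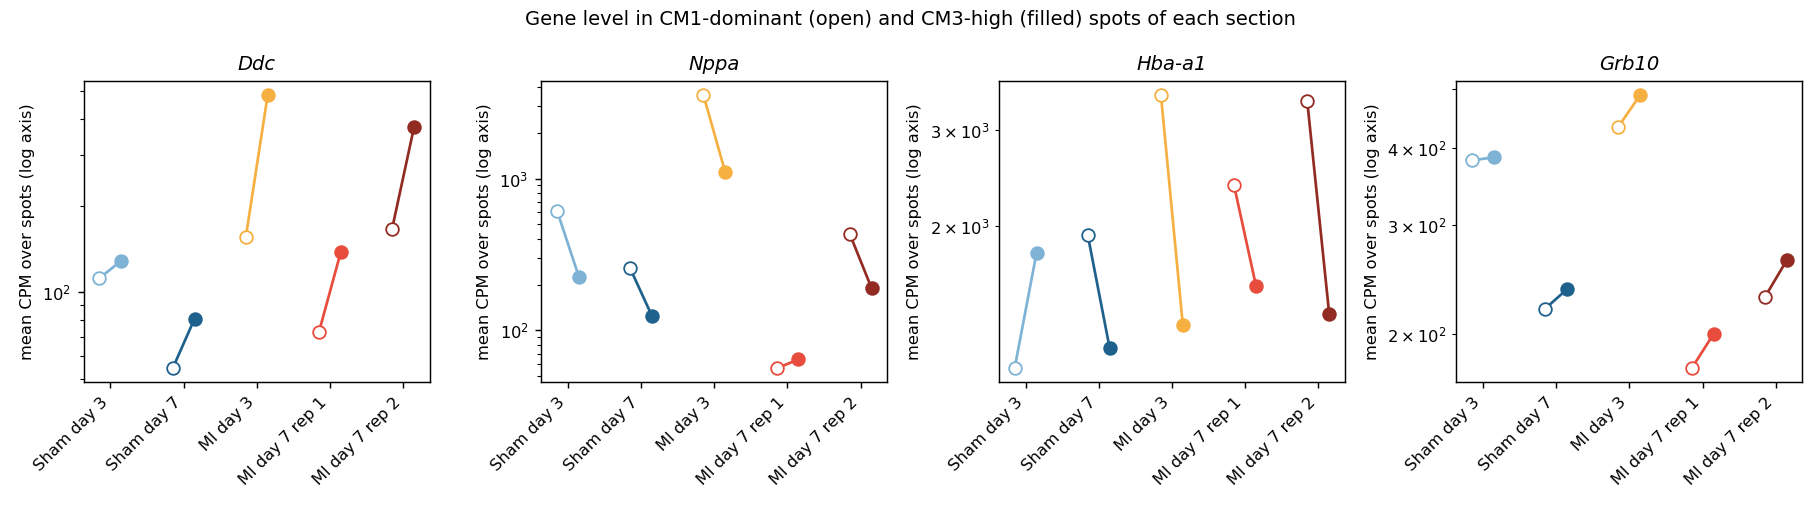
Mean CPM over spots (log axis) of Ddc, Nppa, Hba-a1 and Grb10 in CM1-dominant (open) and CM3-high (filled) spots of each section. Ddc and Grb10 are higher in CM3-high spots in all 5 sections, Nppa is lower in 4 of 5, and Hba-a1 is lower in 4 of 5 and higher in sham day 3.

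By gene list, the sets differed little. Of the 13711 genes shared by the sections, 349 (2.55%) were higher and 683 (4.98%) lower in all 5 sections, with a median difference of -0.05. The lists of cardiomyocyte markers, giant sarcomere proteins, calcium cycling, nuclear respiratory chain, fatty acid oxidation and glycolysis had medians between 0.00 and 0.06, the mitochondrially encoded genes -0.07 and the fetal contractile genes -0.24. In the list of giant sarcomere and membrane scaffold proteins, 3 of 22 genes were higher in all 5 sections (Synpo2l, Svil and Myom3, by 0.17, 0.16 and 0.58) and 0 lower. In calcium cycling and excitation it was 2 of 18 (Trdn and Cacnb2), while Atp2a2, the calcium pump of the sarcoplasmic reticulum, was at 5134, 5516, 5343, 5506 and 5635 CPM in members and 4536, 5254, 4239, 5614 and 4835 CPM in CM1-dominant spots. Of the 47 nuclear genes of the respiratory chain, 8 were higher and 2 lower, by at most 0.13. Of the 13 mitochondrially encoded genes, 0 were higher and 1 (mt-Atp8) lower.

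Lists of other cells ranged more widely between sections. Fibroblast markers summed to 2452 CPM in members against 3022 in sham day 3, 3633 against 3276 in sham day 7, 4412 against 3642 in MI day 3, 5025 against 3767 in MI day 7 replicate 1 and 4454 against 4523 in replicate 2. No fibroblast, mural, blood or endocardial marker had one sign in all 5 sections. Among endothelial markers Kdr, the VEGF receptor, was lower in all 5 (-0.17), as were Ctss among 10 macrophage markers (-0.64) and Krt19 among 3 epicardial ones (-0.53). Of 18 cell cycle genes, Top2a and Aurkb were lower in all 5 sections, by -0.24 and -0.41. Proteasome genes, which the study ties to the stress regulator Nfe2l1 (Nrf1), included 3 of 31 that were higher in all 5 (Psma4, Psmd7 and Psmc5, by 0.13 to 0.19), and of 16 antioxidant genes it was Sod2 (0.10). Over all shared genes 2.55% were higher and 4.98% lower in all 5 sections. Among genes of at least 50 CPM it was 6.95% and 1.6%. The lists carry no filter on level, and their counts were not tested against these shares. Nfe2l1 itself was at 88.0, 93.0, 115, 113 and 109 CPM in members and 98.5, 96.4, 100.5, 95.5 and 105 CPM in CM1-dominant spots, lower in both shams and higher in all 3 MI sections.

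Between day 3 and day 7 the members' own expression changed, a comparison that the choice of spots did not use. Across 13262 genes, limma with operation as a covariate called 20 genes higher (0.151%) and 33 lower (0.249%) at day 7 at a Benjamini-Hochberg adjusted p under 0.05. The fit had 2 residual degrees of freedom. Days did not overlap for 8.84% of genes upward and 19.1% downward, and the median effect of all genes was -0.11 on the log2 scale. With median-of-ratios scaling that median was 0.02 and the calls were 18 higher and 14 lower. All 53 genes kept their direction in each alternative run, but the calls were fragile. None passed without a filter on low values, without limma's mean-variance trend, in the top 2.5% of spots, or without sham day 3, sham day 7 or MI day 3. In the top 10% of spots 51 of the 53 passed. In that fit limma set each gene's spread from the trend over all genes alone (an infinite prior).

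Angptl4 was at 84.1 and 106 CPM at day 3 and 11.8, 10.0 and 8.37 at day 7 and fell by 3.11 on the log2 scale (SE 0.31, with a limma adjusted p of 4.05e-05). Pdk4, the kinase that blocks pyruvate entry into the mitochondria, was at 141 and 162 CPM at day 3 and 30.3, 20.7 and 26.5 at day 7. Acot1, an acyl-CoA thioesterase, was at 164 and 161 CPM and then 33.5, 32.9 and 26.2. The days did not overlap for any of these 3 genes. The list of 21 fatty acid oxidation genes as a whole moved little, with Pdk4 the only call, a median of -0.23 and 5 genes with a positive effect, against -0.11 over all genes.

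Of 9 fetal contractile genes, limma called 4 lower and 0 higher (Myh7, Tnni1, Myl7 and Myl4), with a median of -1.33 over the 9 and 1 positive effect. Over all genes tested, 0.249% were called lower and 0.151% higher, with a median of -0.11. Myl7 and Myl4 are in the atrial list too. Myh7, the slow fetal myosin heavy chain, was at 1924 and 3781 CPM at day 3 and 540, 596 and 769 at day 7 and fell by 2.20 (SE 0.19, limma adjusted p 1.78e-05). Tnni1, the fetal troponin I, was at 2731 and 2346 CPM and then 1106, 775 and 1098, and fell by 1.33 (limma adjusted p 0.00259). Myl7 and Myl4, atrial light chains that the fetal ventricle also makes, fell by 3.49 and 2.02 (limma adjusted p 0.0109 and 0.0212). Nppa fell by 2.253 (SE 0.42, limma adjusted p 0.0234), from 224 and 1097 CPM to 124, 64.3 and 189. Hey2, a Notch target of the compact ventricular wall, was at 59.4 and 56.2 CPM at day 3 and 7.32, 14.3 and 14.3 at day 7, and fell by 2.31 (limma adjusted p 0.00259). Acta2, by contrast, was at 289 and 331 CPM and then 211, 271 and 481 (-0.12, limma adjusted p 0.858).

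The next 5 genes, all known to be imprinted, were picked from the called genes and named after their values were seen. Imprinted genes without a call were not counted, and whether imprinted genes moved as a group was not tested. Igf2 fell by 0.99, the H19 RNA by 0.93, Igf2r by 1.29, the transcription factor Plagl1 by 1.96 and Grb10 by 0.93, with limma adjusted p values of 0.0248, 0.0239, 0.00715, 0.00493 and 0.0348. Igf2 was at 386 and 391 CPM at day 3 and 214, 219 and 154 at day 7. Ddc, the other imprinted gene above, was lower at day 7 within each operation, but with an effect of -0.91 (SE 0.29) and a limma adjusted p of 0.236. Plppr1 and Ppp1r1b, both at most 31.7 CPM, fell by 3.00 and 2.40 (limma adjusted p 0.0436 and 0.0493). Of 18 cell cycle genes all had a negative effect, with a median of -0.79, and Cdk1, the mitotic kinase, was the 1 called (-1.29, limma adjusted p 0.0471). Over all 13262 genes 0.249% were called lower, 5444 effects were positive and the median was -0.11.

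Among the genes that rose, Ckmt2, the mitochondrial creatine kinase of striated muscle, was at 259 and 164 CPM at day 3 and 705, 720 and 757 at day 7, and rose by 1.85 (SE 0.19, limma adjusted p 4.06e-05). Strit1 encodes DWORF, a micropeptide that activates the sarcoplasmic calcium pump, and was at 3.58 and 1.56 CPM and then 27.8, 22.8 and 22.5 (2.97, limma adjusted p 0.00288). Oxct1, which lets muscle burn ketone bodies, rose by 1.21 (limma adjusted p 0.00303). Mpc1, a subunit of the mitochondrial pyruvate carrier, rose by 0.89 and Coq8a, needed for coenzyme Q synthesis, by 0.82 (limma adjusted p 0.0400 and 0.0471). Xirp2 of the intercalated disc, the retinoid receptor Rxrg and the tubulin Tuba8 rose by 2.26, 2.74 and 2.58 (limma adjusted p 0.00863, 0.00921 and 0.00288).

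The lower-expressed Klhdc8a, Pi16, Pde1a and Tmem117 rose by 2.39, 2.16, 2.83 and 2.90 (limma adjusted p 0.00542, 0.0239, 0.0488 and 0.0431). Trim7 was listed at 0 at day 3 in both operations and at 13.7, 10.6 and 8.37 CPM at day 7 (limma adjusted p 0.00715), which gives no fold. For the 47 nuclear genes of the respiratory chain, 45 effects were positive with a median of 0.18 and none passed. The counts for ribosomal protein genes were 2 positive of 35 and a median of -0.18, again with no call.

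**Figure D5:**
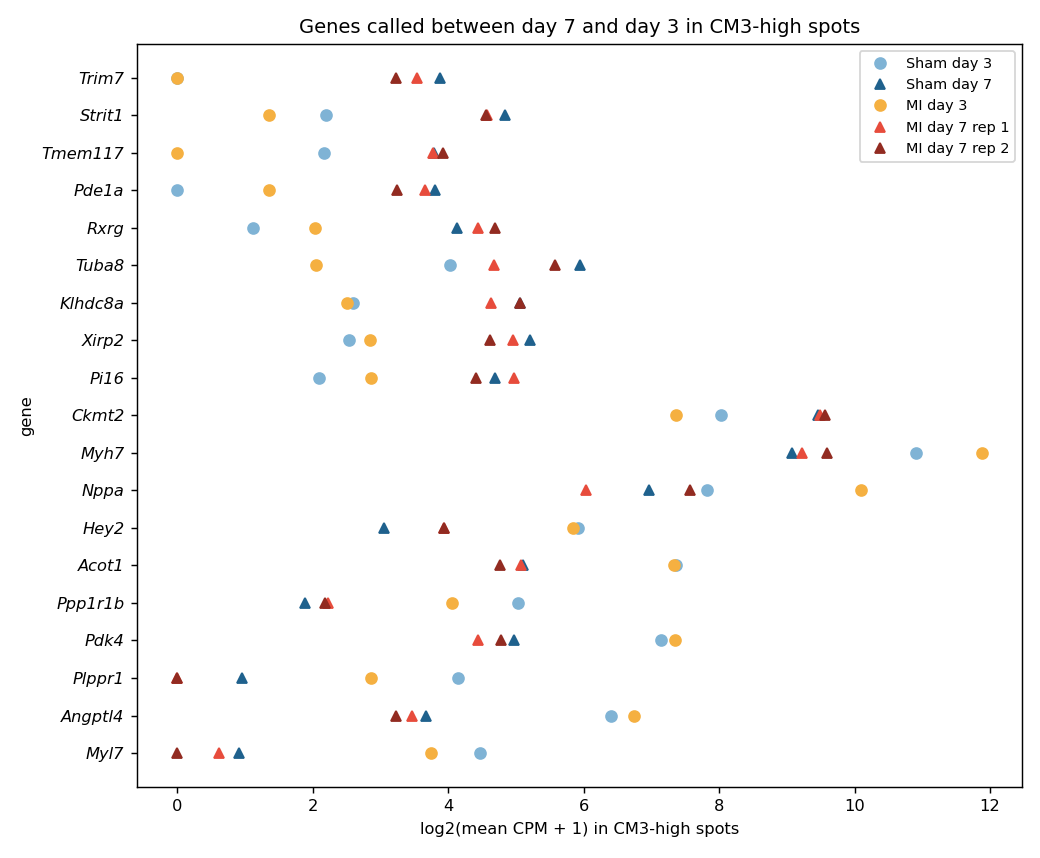
Level of 19 named genes called between day 7 and day 3 in CM3-high spots, as log2(mean CPM + 1) on the horizontal axis. Circles are day 3 and triangles day 7 sections; the 3 day 7 sections lie on one side of the 2 day 3 sections for each gene shown.

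CM1-dominant spots had like levels at both ages. There Myh7 was at 1753 and 3372 CPM at day 3 and 534, 518 and 849 at day 7, and Ckmt2 at 279 and 181 and then 772, 750 and 772 CPM. When the difference between members and CM1-dominant spots was itself compared between days, 0 of 13262 genes passed in limma in either direction (0.0%). At an unadjusted p under 0.05 there were 706 upward and 297 downward. Without sham day 3, sham day 7 or MI day 3 genes passed in both directions. Those fits had a single residual degree of freedom, from the MI day 7 hearts, and an infinite prior. Their counts cannot be read as the effect of the section left out. For Myh7 the difference moved by -0.13 (SE 0.09) and for Ckmt2 by 0.05 (SE 0.09). Among genes of at least 50 CPM whose days did not overlap, the largest upward moves were in Nppa (0.86), Hist1h2bc, Mfap4, Acta1 and Kremen1 and the largest downward ones in Yipf4 (-0.81), Pcp4l1, Ilf2, Sesn1 and Ank2, with limma adjusted p values of 0.486 to 0.503. Days did not overlap in this sense for 13.8% of genes upward and 9.34% downward.

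The next comparison was between MI and sham hearts within the members. With day as a covariate, limma called 1 of 13262 genes higher (0.00754%) and none lower (0.0%). At an unadjusted p under 0.05 there were 484 upward and 421 downward. In the top 10% of spots 59 genes passed upward and 24 downward, and without MI day 7 replicate 2 it was 23 and 18. Both of these fits had an infinite prior. The gene, AI506816, is a processed transcript on chromosome 5 (23698296 to 23712667, GRCm38). It was at 0 and 0.925 CPM in sham day 3 and day 7, and at 37.4, 14.3 and 15.4 CPM in MI day 3 and the MI day 7 replicates (3.99, SE 0.58, limma adjusted p 0.0376). In CM1-dominant spots it was at 1.43 and 2.15 CPM in sham and 53.2, 12.5 and 20.6 CPM in MI. The call was lost in 13 of 16 alternatives, with the direction kept in all 16. It held in the top 10% of spots, with a pseudocount of 5 and without MI day 7 replicate 2. Against a sham level near 0 the fitted value depends on the pseudocount.

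None of the other genes of at least 50 CPM passed. Those whose operations did not overlap were led by Ddc, at 129 and 80.8 CPM in sham and 486, 138 and 375 CPM in MI (1.67, SE 0.29, limma adjusted p 0.0937). Over 16 alternatives Ddc passed with a pseudocount of 5 (limma adjusted p 0.0117) and with MI day 7 replicate 1 left out (limma adjusted p 0.00414). It also passed in the top 10% of spots and without MI day 7 replicate 2, the fits with an infinite prior, whose adjusted p-values are not given. It did not pass in the others, where the limma adjusted p reached 0.9504 with MI day 3 left out (1.48). Without sham day 3 the effect was also 1.48. Mgp, the calcification inhibitor matrix Gla protein, was at 33.3 and 78.8 CPM in sham and 211, 180 and 129 in MI (1.66, SE 0.29, limma adjusted p 0.0937). Mfap4, a microfibril protein, and Eln, elastin, had effects of 1.40 and 1.31 (limma adjusted p 0.153 and 0.147), and Glo1, which detoxifies methylglyoxal, 1.13 (limma adjusted p 0.0966). On the lower side were Myl9, the smooth muscle regulatory light chain (-1.28, limma adjusted p 0.0660), Dek (-1.14), the amino acid transporter Slc38a4 (-1.10), Tpm3 (-1.06) and BC004004 (-0.93), with limma adjusted p values up to 0.257. None of these 10 passed the threshold. Operations did not overlap in this way for 9.45% of genes upward and 10.0% downward.

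By list, none held a call between MI and sham. Fibroblast markers had a positive effect in 10 of 10 genes (median 0.65, against 0.00 over all genes), with Col1a1 at 398 and 417 CPM in sham and 751, 741 and 551 in MI (0.74, limma adjusted p 0.321). Endocardial markers were positive in 5 of 5 (median 1.56) but low. Together they summed to 17.6 and 24.7 CPM in sham and 81.2, 33.4 and 34.6 CPM in MI. Macrophage markers were positive in 9 of 10 (median 0.83), and Lyz2 was at 47.3 and 24.99 CPM in sham and 120, 56.1 and 46.5 in MI. The nuclear respiratory chain was positive in 1 of 47 (median -0.15), cell cycle genes in 2 of 18 (median -0.44), and proteasome genes in 16 of 31 (median 0.00). Nfe2l1 had an effect of 0.31 (SE 0.19, limma adjusted p 0.782).

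Whether members differed from CM1-dominant spots more in MI than in sham hearts was tested on the difference itself. The CM1-dominant spots held on average 10.2% and 10.1% CM3 in sham and 1.46%, 2.90% and 7.72% in MI. The comparator was thus unlike between operations, and its part in the results was not tested. In limma 0 of 13262 genes passed in either direction (0.0%). At an unadjusted p under 0.05 there were 509 upward and 281 downward. Without sham day 7 genes passed in both directions, but in a fit with a lone sham section, a single residual degree of freedom and an infinite prior. Ddc had the smallest adjusted p, with a difference larger in MI hearts by 0.89 (SE 0.17, limma adjusted p 0.192), which did not pass. Over 17 alternatives its effect ran from 0.48 to 1.44. It passed in the top 10% of spots (0.68, limma adjusted p 0.00552) and in interior spots (1.05, limma adjusted p 0.00316). Without sham day 7 the effect was 1.44, without MI day 7 replicate 2 it was 0.90, and with sex in the fit 0.82. Sex was a term added after these results. Ddc passed in those fits too, but they had a single residual degree of freedom and an infinite prior. Their adjusted p-values are therefore not given. Ddc did not pass in the other alternatives. Without sham day 3 or MI day 3 the effect was 0.48, and with the UMI-matched comparator 0.80 (limma adjusted p 0.866).

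After Ddc, the named genes were Ikbkb (0.84), Armcx3 (0.80), Narf (0.75) and Mgp (0.73) upward, and Npepl1, Tmem9b, Ntn1, Sord and Tmem63b (-0.56 to -0.42) downward, with limma adjusted p values of 0.292 to 0.817. Operations did not overlap for 13.2% of genes upward and 7.52% downward. Blood markers had 1 of 6 effects positive and a median of -0.90, and the 13 mitochondrially encoded genes had none positive and a median of -0.14, against 0.04 over all genes. Fibroblast and mural markers had 10 of 10 and 7 of 7 effects positive and medians of 0.32 and 0.35. Endocardial markers, at the low levels given above, had 4 of 5 positive and a median of 0.75. No gene of these lists passed the threshold. The MI and sham sections also differed in that sham day 3 was deposited as raw counts and the others as corrected values, and their part in these results was not tested.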

How the data were processed

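Visium libraries of 5 heart sections were analysed. The authors ran Space Ranger (mouse genome mm10/GRCm38) and sctransform in Seurat. The table deposited for sham day 3 has raw UMI counts. Those deposited for the other 4 sections have counts after sctransform correction, treated here as a score. The deposited metadata gave raw UMI totals as counts, positions in image pixels, and 11 cell type scores, each a fraction printed here as a percent. Since 4 tables were not raw, no count test was used and the planned fallback was followed. Spots were scaled to CPM over 13711 shared genes and averaged per section. Names turned into dates (18 and 19 in 2 tables) and duplicated names were left out.

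Fits used limma 3.58.1 (R 4.3.3) with a trend on log2(mean CPM + 1), which understates changes of low genes, for genes at 1 CPM or more in at least 2 profiles, with two-sided p-values adjusted by Benjamini-Hochberg at 0.05. Other tests were exact (scipy 1.17.1). The fit was tested on simulated data. Adjacent spots lay within 1.25 spacings. Gene positions are from GENCODE M21. Sections shared 3 to 449 barcodes, which mark slide positions and not cells. Sex was read from Xist and Ddx3y.

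Named genes were those of at least 50 CPM with 1 sign in all 5 sections (12 a direction by size), genes called by limma (10 a direction) or, under 5 calls, the 5 largest without overlap, 2 to 4 of the highest genes a list, and Nfe2l1. Any other gene was named after its values were seen, and 1 gene the rule names is not reported here. Members and lists were chosen with earlier results of these data known. Alternatives were another share of spots, pseudocount, scaling, filter, comparator or covariate, and each section left out.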

Additional observations from a re-analysis of the deposited data

Results flagged for a closer look

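Each result here is a difference between CM3-high and CM1-dominant spots that had one sign in every section of one group and the opposite sign in every section of the other. The direct test of the gene differences is the limma fit on differences, in which none of these genes passed. Most of these genes were also named for the size of their change. The values here are differences of group means, without the covariate of the limma fit, and so can differ from the fitted effects of the report.

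Between MI and sham hearts the log2 difference of Ikbkb, a kinase of the NF-kB pathway, was larger in MI by 0.84 (0.35 in MI, -0.48 in sham), and that of Armcx3 by 0.75. The difference of the atrial light chain Myl7 was smaller in MI by -0.92, that of Ntn1 by -0.50, that of Sord by -0.48 and that of Tmem63b by -0.44. Myl7 was at or under 25.6 CPM in every profile.

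Between day 7 and day 3 the log2 difference was larger at day 7 for Pde1a by 2.91, for Pi16 by 1.12, for Hist1h2bc by 0.82 and for Klhdc8a by 0.77. It was smaller at day 7 for Plppr1 by -1.53, for Ppp1r1b by -0.88, for Yipf4 by -0.79, for Ank2 by -0.66 and for Ilf2 by -0.66. Pde1a, Pi16, Klhdc8a, Plppr1 and Ppp1r1b were at or under 32.3 CPM in each set of spots.

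Among measures of position, relative distance from the section centre differed between MI and sham by 0.23, and distance to the nearest EndoEC-dominant spot by -2.00 spacings (-1.83 in MI, 0.18 in sham), both with an exact permutation p of 0.2. Distance to the nearest FB-dominant spot differed between day 7 and day 3 by -0.99 spacings, and this difference was not tested. Among adjacent spots the CM2 score differed between MI and sham by -0.78 and the macrophage score by -3.64 percentage points (exact permutation p of 0.2 for both), and the FB score differed between day 7 and day 3 by 7.05 points (3.67 at day 7, -3.39 at day 3), which was not tested.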

How the results depend on the processing

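The number of sections, 3 MI and 2 sham, limited the fits to 2 residual degrees of freedom. A single one remained with a section left out or with sex as a covariate. With a section left out, the lone section of a group was assumed to vary like the others. Several of these fits, and the top 10% fit within the members, had an infinite prior. Their counts below therefore do not measure the spread between hearts. MI and sham hearts were different animals, as were day 3 and day 7 hearts, so these comparisons were not paired. Members and CM1-dominant spots were paired within a section. CM1-dominant spots with a CM3 score of 0 were not run as a comparator, since sham day 3 had 0 of them. The sex covariate and the measures of offset, spread and distance to CM4-dominant spots were chosen after seeing the data. Unless stated, the cause of a change was not tested.

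Genes higher and lower in members in all sections numbered 175 and 25 in the top 10% of spots, 244 and 24 with median-of-ratios scaling and 110 and 97 without mitochondrial and haemoglobin genes. Leaving out a section gave 253 to 353 and 70 to 130, where a sign had to be shared by 4 sections and not 5.

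Genes higher and lower in MI were 59 and 24 in the top 10% of spots and 5 and 1 with a pseudocount of 5. They were 0 and 0 in the top 2.5%, with a pseudocount of 0.5, with median-of-ratios scaling, without mitochondrial and haemoglobin genes, for summed values, in interior spots, with no filter, without the trend and with sex as a covariate. Leaving out a section gave 0 to 23 and 0 to 18, the most without MI day 7 replicate 2.

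Genes higher and lower at day 7 were 174 and 381 in the top 10% of spots and 0 and 0 in the top 2.5%, with no filter and without the trend. There were 21 lower with a pseudocount of 0.5 and 14 lower with median-of-ratios scaling. The counts were 9 and 13 without mitochondrial and haemoglobin genes, 12 and 15 for summed values and 3 and 11 in interior spots, and 11 were higher with sex as a covariate. Leaving out a section gave 0 to 38 and 0 to 97, with 0 and 0 without sham day 3, sham day 7 or MI day 3, 7 and 12 without MI day 7 replicate 1 and 38 and 97 without replicate 2.

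For the difference between members and CM1-dominant spots, MI against sham, the calls were 8 higher and 8 lower in the top 10% of spots, 3 lower with median-of-ratios scaling, 1 and 3 in interior spots, and 6 and 13 with sex as a covariate. Leaving out a section gave 0 to 179 and 0 to 238, the most without sham day 7. By day they were 23 and 7 with sex as a covariate and 0 to 300 and 0 to 41 with a section left out, with 297 and 39 without sham day 3, 300 and 41 without sham day 7 and 59 and 31 without MI day 3.

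Relative distance from the centre turned to 0.0184 in the top 2.5% of spots and 0.0575 against all other spots, and ran from -0.0593 to 0.0431 with a section left out, the last without sham day 7. Against all other spots the CM1 score of neighbours turned to 8.80 and their FB score to -6.83 percentage points. The FB score ran from -0.65 to 2.38 points with a section left out, the lowest without MI day 7 replicate 1. The CM3 score of sections, edge share, offset, spread, distance to CM4-dominant spots and the CM3 and CM4 scores of neighbours kept their direction in all alternatives run.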
